A study of Mus musculus with 11 samples.

Results

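The genes described here encode RNA polymerase II (Pol II), the Mediator complex and the general transcription factors. Members were taken by gene symbol: Polr2a to Polr2m, the Med and Taf genes, the Gtf2 genes of TFIIA, TFIIB, TFIIE, TFIIF, TFIIH and TFII-I, and Tbp with its relatives Tbpl1 and Tbpl2. The rule found 77 of the 24421 genes counted, and no measured value entered it. They comprise 13 Pol II genes, 30 Mediator genes, 3 genes of the TBP family, 18 TAF genes and 13 Gtf2 genes.

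Pol II transcribes protein-coding genes and can start only with help. TFIID, built from TBP and the TAFs, binds the core promoter, TFIIA and TFIIB stabilise it there, TFIIF brings the polymerase, and TFIIE recruits TFIIH, which opens the DNA. Mediator bridges activators and the polymerase through its head, middle and tail modules, while a separable kinase module holds it back. The fully grown mouse oocyte is transcriptionally silent and lives on stored RNA, and the genome of the embryo is switched on broadly at the 2-cell stage.

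The series holds 11 RNA-seq libraries, each from 50 oocytes or embryos pooled from 2 to 3 females. All females carried floxed Daxx alleles (Daxx f/f) on a mixed C57BL/6J and 129/Sv background and were over 8 weeks old. Daxx encodes a histone H3.3 chaperone. Control females had the floxed alleles alone. Knockout females also carried Zp3-cre, a Cre transgene driven in growing oocytes by the promoter of a zona pellucida gene, so the deletion and the transgene came together. Females of every group were treated with the hormones PMSG (5 IU) and hCG (5 IU). Oocytes at metaphase II (MII) were collected 20 hours after hCG, with 3 control and 3 knockout libraries. Embryos came from such oocytes fertilised in vitro with sperm of JF1 males aged 8 weeks and were collected 33 hours later. The 3 control embryo libraries are labelled m+z+, and the 2 maternal knockout embryo libraries (m-z+) had an intact paternal Daxx allele. A library is thus a pool, and nothing in it speaks of a single oocyte or embryo.

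The unit of level is CPM, which sets the reads of a gene against all counted reads in its library. Libraries held 32582998 to 39798586 counted reads in oocytes and 17978192 to 25308468 in embryos. The 77 genes together took 0.746% to 0.771% of the reads in oocytes and 0.879% to 0.915% in embryos. Daxx itself stood at 92.6 ± 5.67 CPM (SD, n = 3) in control oocytes and 8.14 ± 0.286 (SD, n = 3) in knockout oocytes. In embryos it stood at 39.7 ± 6.14 CPM (SD, n = 3) in controls and 24.2 ± 1.88 (SD, n = 2) in maternal knockouts. Of 8 oocyte markers, the summed level was 10666 to 11241 CPM in oocyte libraries and 1317 to 1788 in embryos, and 6 markers of the 2-cell stage summed to 695 to 859 CPM in embryos and to at most 0.106 in oocytes. The 12 granulosa and cumulus markers summed to 20.6 to 23.3 CPM in oocytes and 49.3 to 64.4 in embryos. Of the 12, 2 had a group mean above 1 CPM in oocytes, led by Cyp19a1 at 17.2 to 19.5 CPM, and 4 to 5 did in embryos, led by Amhr2 at 38.2 to 52.2 CPM, while Ptx3 was at 0 in every oocyte library. The 10 sperm markers summed to 6.43 to 6.84 CPM in control oocytes, 9.63 to 12.02 in knockout oocytes and 2.84 to 9.13 in embryos. Prm2 was the 1 sperm marker called between oocyte genotypes (1.60 to 2.29 CPM in controls and 4.61 to 5.90 in knockouts). The 5 blood markers summed to at most 1.72 CPM in any library, and the part of these markers in the differences given here was not tested. Both embryo libraries numbered 2 held more reads of Lars2, a gene that collects reads resembling ribosomal RNA, than the others, at 1.81% and 1.85% against 0.482% to 0.871%.

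The first question was how the machinery differed between the silent oocyte and the 2-cell embryo. Among control libraries, 41 of the 77 genes were higher in embryos and 21 were lower, as tested by edgeR's quasi-likelihood test with Benjamini-Hochberg adjustment over all genes and a threshold of 0.05. The background was large: of 15577 genes tested, 43.1% were higher and 40.0% lower. The 77 genes were called about as often as genes in general, 80.5% against 83.1%, with 53.2% higher and 27.3% lower. At least 2-fold, 22 were higher and 12 lower, against 33.0% and 28.5% of all genes. The median log2 change was 0.39 for the 77 genes and 0.07 for all genes tested. These are shares of counted reads, and since RNA per oocyte or embryo was not measured, less RNA per cell cannot be told apart from a smaller share. Fertilisation, culture and the JF1 genome came with the embryo stage and cannot be told apart from it either.

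The knockout libraries, which share no library with the controls, gave 40 genes higher and 19 lower, where 42.5% of 16592 genes were higher and 37.7% lower, 80.2% in all. In both genotypes 39 genes were higher and 19 were lower, against 40.3% and 37.5% of all genes tested in both. No gene rose in one genotype and fell in the other. Polr2b and Med10 passed as higher in controls only, Polr2i and Med21 as lower in controls only, and Med24 as higher in knockouts only. The differences between genotypes behind these calls were tested directly and none passed, as given further on.

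**Figure D1:**
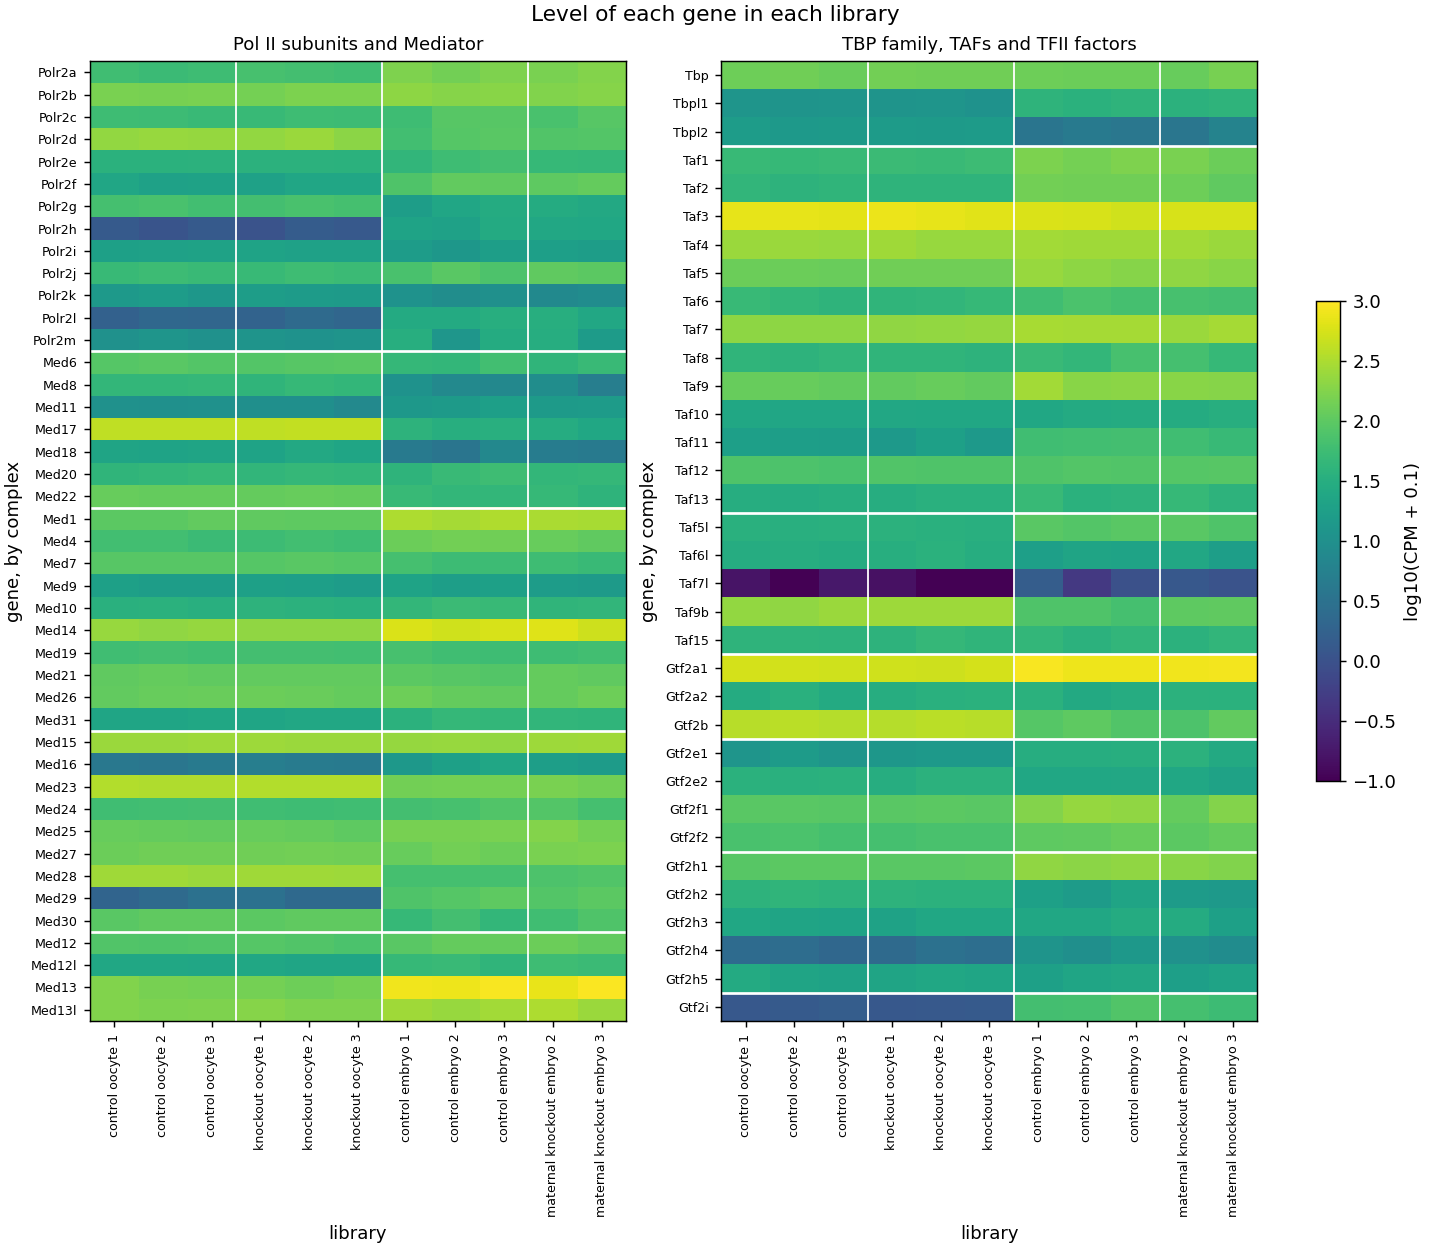
Level of each of the 77 genes (rows, grouped by complex, white lines between complexes) in each of the 11 libraries (columns), as log10 of CPM plus 0.1. The main change in colour lies between the 6 oocyte and the 5 embryo columns, for example in Gtf2i, Med29, Polr2h and Polr2l, which are dark in oocytes, and in Med17, which is bright there.

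Of the Pol II genes, 9 rose and 4 fell in controls, and none was left without a call. Over all genes 83.1% were called in controls, 43.1% higher and 40.0% lower. The steepest rises were those of Polr2h and Polr2l, small subunits that Pol II shares with RNA polymerases I and III. Polr2h (chromosome 16 from 20717826 to 20722272, GRCm38) stood at 1.26, 1.01 and 1.28 CPM in control oocytes and at 20.5, 19.0 and 28.1 CPM in control embryos. In knockouts it stood at 0.943, 1.38 and 1.22 CPM in oocytes and at 24.8 and 23.8 CPM in embryos. Every embryo library lay far above every oocyte library, with a log2 change of 4.23 (SE 0.21; adjusted p by edgeR 3.8e-09) in controls and 4.31 (SE 0.19) in knockouts. Polr2l (chromosome 7 from 141471860 to 141475153) was at 1.63, 2.06 and 2.00 CPM in control oocytes and at 28.3, 27.5 and 32.2 CPM in control embryos. Its log2 change was 3.92 (SE 0.16; adjusted p by edgeR 9.3e-10), again without overlap, and 3.75 (SE 0.17) in knockouts. Both genes have near-identical stretches elsewhere, Polr2h in Gm7511 and Polr2l in Usp50, Gm10774 and Gm13015, so their reads may be split or shared.

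The other shared subunits differed among themselves. Polr2f rose from 20.9 ± 1.71 to 97.5 ± 17.2 CPM in controls (SD, n = 3 each, log2 2.20, adjusted p by edgeR 2.7e-08). Polr2e rose by less, from 36.3 ± 0.599 to 53.9 ± 10.5 CPM (log2 0.54). Polr2k, the last of these subunits, fell from 14.3 ± 1.69 to 9.98 ± 1.02 CPM (log2 -0.54). Of these 5 subunits, which sit in the same enzymes, 4 rose and 1 fell. Polr2k, the one that fell, has a near-identical stretch in Gm46136, so its reads too may be split or shared.

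Polr2d and Polr2g, which encode the pair that forms the stalk of the polymerase, fell together. Polr2d was at 225, 245 and 233 CPM in control oocytes and at 60.7, 87.3 and 94.9 CPM in control embryos. Polr2g was at 66.8, 71.8 and 61.4 CPM in control oocytes and at 16.8, 23.5 and 28.4 CPM in control embryos. The oocyte and embryo libraries did not overlap for either gene, and the log2 changes were -1.56 (SE 0.14) and -1.57 (SE 0.16) in controls and -1.49 and -1.35 in knockouts, all past the edgeR threshold.

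Polr2a, the largest subunit with the repeated tail that is phosphorylated during transcription, rose from 56.4 ± 3.39 to 160 ± 16.0 CPM (SD, n = 3 each, log2 1.48, SE 0.10; adjusted p by edgeR 7.0e-08). Its partner in the active centre, Polr2b, moved little, from 155 ± 1.80 to 195 ± 9.67 CPM (log2 0.30). That rise passed in controls, and in knockouts the change of 0.15 did not (adjusted p by edgeR 0.16). Polr2c and Polr2j, on which the enzyme is assembled, rose by 0.54 and 0.61 on the log2 scale. Polr2i, a small subunit that bears on fidelity, fell by 0.36 on the log2 scale in controls and did not pass in knockouts (log2 -0.24, adjusted p by edgeR 0.078). Polr2m, a protein that binds Pol II without being a core subunit, rose by 1.14 on the log2 scale with wide spread, at 32.5, 12.7 and 28.4 CPM in control embryos against 10.3, 11.96 and 10.6 in control oocytes. The lowest of these embryo values, like the lower of the values 31.5 and 15.8 in knockouts, still exceeded all oocyte libraries of its genotype.

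Per length, the 12 core subunits were much less even in oocytes than in embryos. In control oocytes the mean ran from 1.14 CPM per kilobase for Polr2l to 231 for Polr2d, a ratio of 203, and in knockout oocytes the ratio was 184. In control embryos it ran from 15.9 for Polr2k to 171 for Polr2f, a ratio of 10.7, and in knockout embryos the ratio was 14.3. The low end in oocytes was made by Polr2l and Polr2h alone, at 1.14 and 1.499 CPM per kilobase. These levels use the length deposited with the counts, which the sources used here do not define and which ran from 0.158 to 1.69 times the summed annotated exons of the 77 genes. Without any length the ratios were 199 and 193 in oocytes and 19.5 and 21.9 in embryos.

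**Figure D2:**
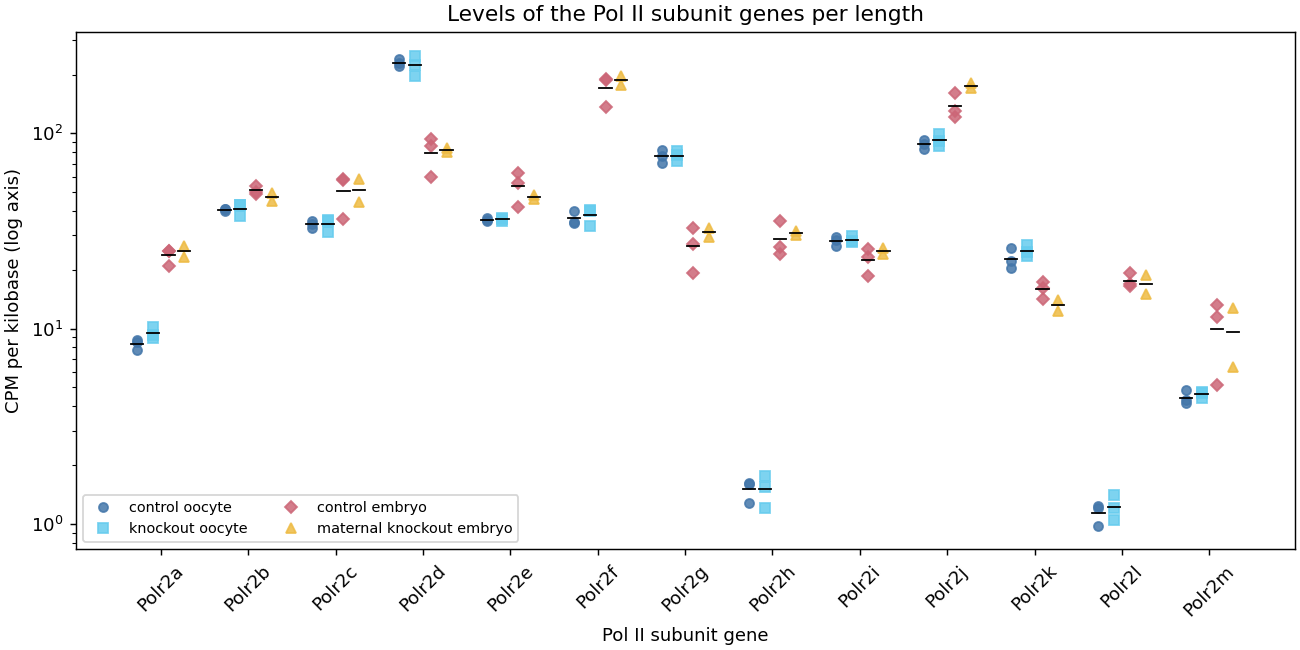
CPM per kilobase of deposited length (log axis) for the 13 Pol II genes, 1 point per library and a black line at each group's mean. Polr2h and Polr2l lie near 1 to 2 in all oocyte libraries and above 10 in all embryo libraries, while Polr2d and Polr2g are lower in embryos.

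Mediator genes moved both ways: 13 of 30 rose, 10 fell and 7 did not pass in controls, and the median log2 change was 0.12. That is 43.3% higher and 33.3% lower, close to the 43.1% and 40.0% of all genes in controls. In knockouts 42.5% of all genes were higher and 37.7% lower. The modules differed in their counts, which are small and were not tested against these shares. In the head, which contacts the polymerase, 5 of 7 genes fell and 1 rose, with a median of -1.34. In the kinase module all 4 rose, with a median of 0.77. The middle had 5 rises and 2 falls among 10 genes, and the tail 3 rises and 3 falls among 9. Knockouts gave the same counts in the head (1 rise, 5 falls) and the kinase module (4 rises), 4 rises and 1 fall in the middle, and 4 rises and 3 falls in the tail.

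Med17, the scaffold of the head, fell furthest of all 77 genes. It was at 407, 411 and 412 CPM in control oocytes and at 38.5, 32.6 and 32.7 CPM in control embryos. In knockouts it was at 412, 432 and 426 CPM in oocytes and at 30.4 and 23.9 CPM in embryos. Oocyte libraries were narrow and lay about an order of magnitude above the embryo libraries, with a log2 change of -3.59 (SE 0.10; adjusted p by edgeR 6.0e-11) in controls and -4.01 (SE 0.11) in knockouts. Med17 lies on chromosome 9 from 15260351 to 15279906.

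Other head genes followed with smaller falls. Med8 fell from 45.1 ± 1.25 to 8.49 ± 2.00 CPM in controls (SD, n = 3 each, log2 -2.44, SE 0.17), and Med18, its neighbour in the complex, from 21.3 ± 0.329 to 5.00 ± 2.05 (log2 -2.11, SE 0.23). Med22 fell from 115 ± 2.98 to 46.1 ± 3.19 CPM (log2 -1.34) and Med6 from 89.4 ± 3.81 to 51.1 ± 9.64 (log2 -0.83). Med11, which pairs with Med22, rose by 0.55 on the log2 scale, and Med20, which pairs with Med18, did not pass (log2 0.15, adjusted p by edgeR 0.31). Partners in the head thus did not all move alike.

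In the middle module, Med14, the backbone that joins the modules, rose from 230 ± 9.56 to 565 ± 44.6 CPM (log2 1.27), and Med1, the contact of nuclear receptors, from 102 ± 5.27 to 315 ± 23.9 (log2 1.60). Med4 and Med31 rose by 1.17 and 0.86, and Med10 by 0.49 on the log2 scale. Med10 shares 92.8% of its exon bases with Gm26819 on the opposite strand, and whether counting used strand is unknown from the sources used here. Med7 fell by 0.66 on the log2 scale and Med21 by 0.26, the latter in controls only. Med9, Med19 and Med26, which recruits elongation factors, had no call in either genotype.

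The tail, which receives most activators, held Med29, which in controls had the largest rise after Gtf2i. Med29 (chromosome 7 from 28385247 to 28392690) was at 1.87, 2.29 and 3.05 CPM in control oocytes and at 80.0, 87.3 and 103 CPM in control embryos. In knockouts it was at 3.04, 2.23 and 2.22 CPM in oocytes and at 86.5 and 99.1 CPM in embryos. Oocyte libraries held little of it and embryo libraries much more, a rise of 5.19 on the log2 scale (SE 0.18; adjusted p by edgeR 2.5e-10) in controls and of 5.17 (SE 0.15) in knockouts. Med16 rose from 3.94 ± 0.289 to 18.6 ± 4.90 CPM in controls (log2 2.21), and Med25 by 0.40 on the log2 scale. Med28 fell from 265 ± 12.2 to 66.5 ± 1.13 CPM (log2 -2.02, SE 0.08), Med23 from 338 ± 5.39 to 143 ± 4.08 (log2 -1.27) and Med30 by 0.99 on the log2 scale. Med15, Med24 and Med27 had no call in controls.

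The kinase module is built around Med12 and Med13 or their relatives Med12l and Med13l. Med13, which docks the module on Mediator, was at 174, 152 and 145 CPM in control oocytes and at 824, 794 and 907 CPM in control embryos. Knockout oocytes held 144, 132 and 148 CPM of it and knockout embryos 747 and 948 CPM. With the embryo libraries far above the oocytes, the log2 change was 2.40 (SE 0.10; adjusted p by edgeR 6.4e-10) in controls and 2.54 (SE 0.12) in knockouts. Med13l rose by 0.61, Med12 by 0.39 and Med12l by 0.94 on the log2 scale in controls.

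Tbp, the TATA-binding protein of TFIID, had no call. Control oocytes held 131, 137 and 122 CPM of it and control embryos 131, 125 and 126 CPM, so the libraries overlapped (log2 -0.06, SE 0.09; adjusted p by edgeR 0.56). Its relatives moved in opposite directions around it. Tbpl2, which replaces TBP during oocyte growth, fell from 16.1, 14.5 and 15.1 CPM in control oocytes to 3.50, 4.34 and 3.78 CPM in control embryos. Knockout libraries were at 15.7, 14.9 and 15.4 CPM and at 3.67 and 6.04 CPM. The groups did not overlap, with a log2 change of -2.001 (SE 0.16; adjusted p by edgeR 3.0e-07) in controls and -1.71 (SE 0.22) in knockouts. Tbpl1, a relative that does not bind TATA boxes and is known from spermatids, rose from 12.2, 11.7 and 12.1 CPM in control oocytes to 40.5, 36.4 and 40.5 CPM in control embryos (log2 1.68, SE 0.12).

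TFIID TAFs mostly rose: 9 of 13 were higher in control embryos, 1 was lower and 3 had no call. Knockouts gave the same counts. The shares over all genes were 43.1% higher and 40.0% lower in controls, and 42.5% and 37.7% in knockouts. These counts were not tested against those shares. Taf11 rose from 17.4 ± 0.719 to 61.0 ± 2.08 CPM (log2 1.78, SE 0.10), and Taf2, a promoter-binding TAF, from 40.7 ± 2.55 to 136 ± 1.74 (log2 1.72, SE 0.09). Taf1, the large subunit that carries the scaffold of the complex, rose by 1.65 on the log2 scale. The other rises lay between 0.39 for Taf13 and 0.96 for Taf9 on the log2 scale. Taf3, which reads methylated histone H3 at promoters, was the member that fell, from 703 ± 19.6 to 560 ± 44.4 CPM (log2 -0.35), and per length it had the highest mean of the TFIID TAFs at both stages, at 145 and 115 CPM per kilobase. Taf4, Taf10 and Taf12 had no call in either genotype.

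Taf9b and Taf9, close relatives that both pair with Taf6, changed places. Taf9b (X chromosome from 106206874 to 106221158) was at 228, 219 and 247 CPM in control oocytes and at 77.8, 78.6 and 65.3 CPM in control embryos. Taf9 was at 116, 116 and 110 CPM in control oocytes and at 277, 195 and 205 CPM in control embryos. Neither gene's oocyte and embryo libraries overlapped, and the log2 changes were -1.67 (SE 0.11) for Taf9b and 0.96 (SE 0.13) for Taf9, both past the edgeR threshold. Per length, Taf9b stood at 1.48 to 1.85 times Taf9 in the 6 oocyte libraries and at 0.220 to 0.434 times Taf9 in the 5 embryo libraries. Taf9 shares 73.8% of its exon bases with Ak6 on the same strand and has near-identical copies, so its reads are uncertain.

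Ratios of the other relatives, per length and over all libraries of a stage, moved as follows. Tbpl2 fell from 0.131 to 0.153 times Tbp in oocytes to 0.0331 to 0.0487 in embryos, while Tbpl1 went from 0.0571 to 0.0702 times Tbp up to 0.187 to 0.227. Med13l went from 0.789 to 1.00 times Med13 down to 0.207 to 0.336, whereas Med12l over Med12 went from 0.170 to 0.193 up to 0.224 to 0.325. Taf5l and Taf6l, which serve in the SAGA coactivator in place of Taf5 and Taf6, parted: Taf5l over Taf5 went from 0.257 to 0.304 up to 0.427 to 0.539, and Taf6l over Taf6 from 0.719 to 0.980 down to 0.323 to 0.419. In none of these pairs did the range over oocyte libraries meet the range over embryo libraries. The ratios were not tested, and they are set by the 2 genes' changes given here.

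**Figure D3:**
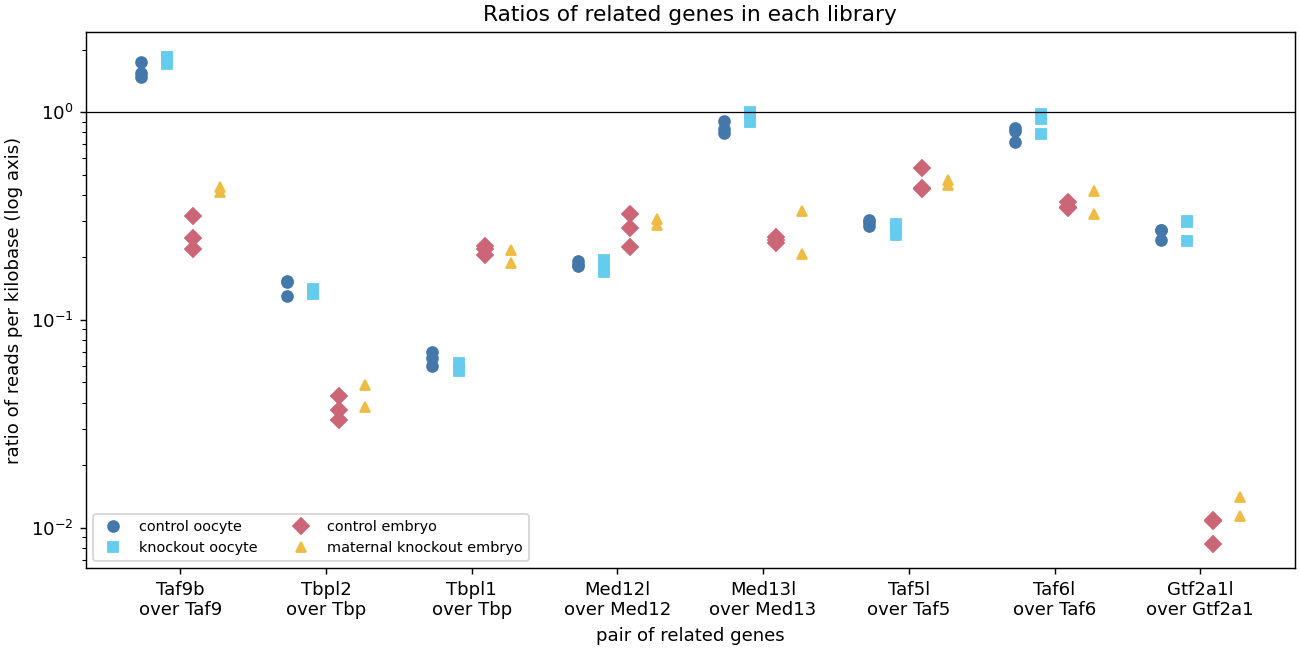
Ratio of reads per kilobase (log axis) between related genes, 1 point per library, marked by group. The line at 1 marks equal levels. Taf9b over Taf9 crosses it, from above 1 in all 6 oocyte libraries to below 1 in all 5 embryo libraries.

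Taf7l, a germ-cell relative of Taf7, was barely read: 5 reads in the 3 control oocyte libraries together against 52 in the 3 control embryo libraries, and 2 against 49 in knockouts. The ratio of its read shares in controls was 19.2, with an interval of 7.70 to 61.5 (95%, exact, counting error only). Taf5l rose by 1.39, and Taf6l fell by 0.61 on the log2 scale in controls. Taf15, an RNA-binding protein of the FET family, had no call (log2 0.04, adjusted p by edgeR 0.71).

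Among the factors that position the polymerase, Gtf2b, the single subunit of TFIIB, was at 365, 392 and 364 CPM in control oocytes and at 88.4, 100 and 82.1 CPM in control embryos. Knockouts held 363, 389 and 378 CPM of it in oocytes and 75.1 and 109 CPM in embryos. It fell without overlap by 2.07 on the log2 scale (SE 0.10; adjusted p by edgeR 3.1e-09) in controls and by 2.08 (SE 0.17) in knockouts. Gtf2a1, the large precursor of TFIIA, rose from 529 ± 17.9 to 831 ± 83.5 CPM (log2 0.63), and Gtf2a2, its small subunit, had no call (log2 -0.02). The germ-cell relative Gtf2a1l, which the symbol rule does not cover, fell from 38.7 ± 3.60 to 2.30 ± 0.117 CPM (log2 -4.09, SE 0.15; adjusted p by edgeR 4.0e-10). Per length it went from 0.241 to 0.301 times Gtf2a1 in oocytes to 0.00839 to 0.0140 in embryos.

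Both subunits of TFIIF rose in controls, Gtf2f1 from 94.1 ± 2.42 to 208 ± 23.6 CPM (log2 1.12) and Gtf2f2 from 69.8 ± 3.48 to 109 ± 8.18 (log2 0.61). The TFIIE subunits parted, with log2 changes of 1.22 for Gtf2e1 and -0.56 for Gtf2e2. In TFIIH, Gtf2h4, which holds the helicase that opens promoters, rose from 2.36 ± 0.292 to 11.7 ± 2.01 CPM (log2 2.28, SE 0.20), and Gtf2h1 from 95.4 ± 2.60 to 215 ± 9.07 (log2 1.15). Gtf2h2 fell by 1.11 on the log2 scale, and Gtf2h3 and Gtf2h5 had no call. Subunits of 1 complex thus spanned log2 changes from -1.11 to 2.28 in TFIIH.

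Gtf2i encodes TFII-I, a DNA-binding factor of many promoters that carries a general factor's name without belonging to the basal complex. It was at 1.17, 1.28 and 1.43 CPM in control oocytes and at 63.0, 65.5 and 83.3 CPM in control embryos. In knockouts it was at 1.15, 1.22 and 1.24 CPM in oocytes and at 66.5 and 55.7 CPM in embryos. This was the steepest rise of the 77 genes with at least 10 CPM, at 5.73 on the log2 scale (SE 0.17; adjusted p by edgeR 6.4e-11) in controls and 5.61 (SE 0.13) in knockouts. Gtf2i lies on chromosome 5 from 134237832 to 134317678.

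**Figure D4:**
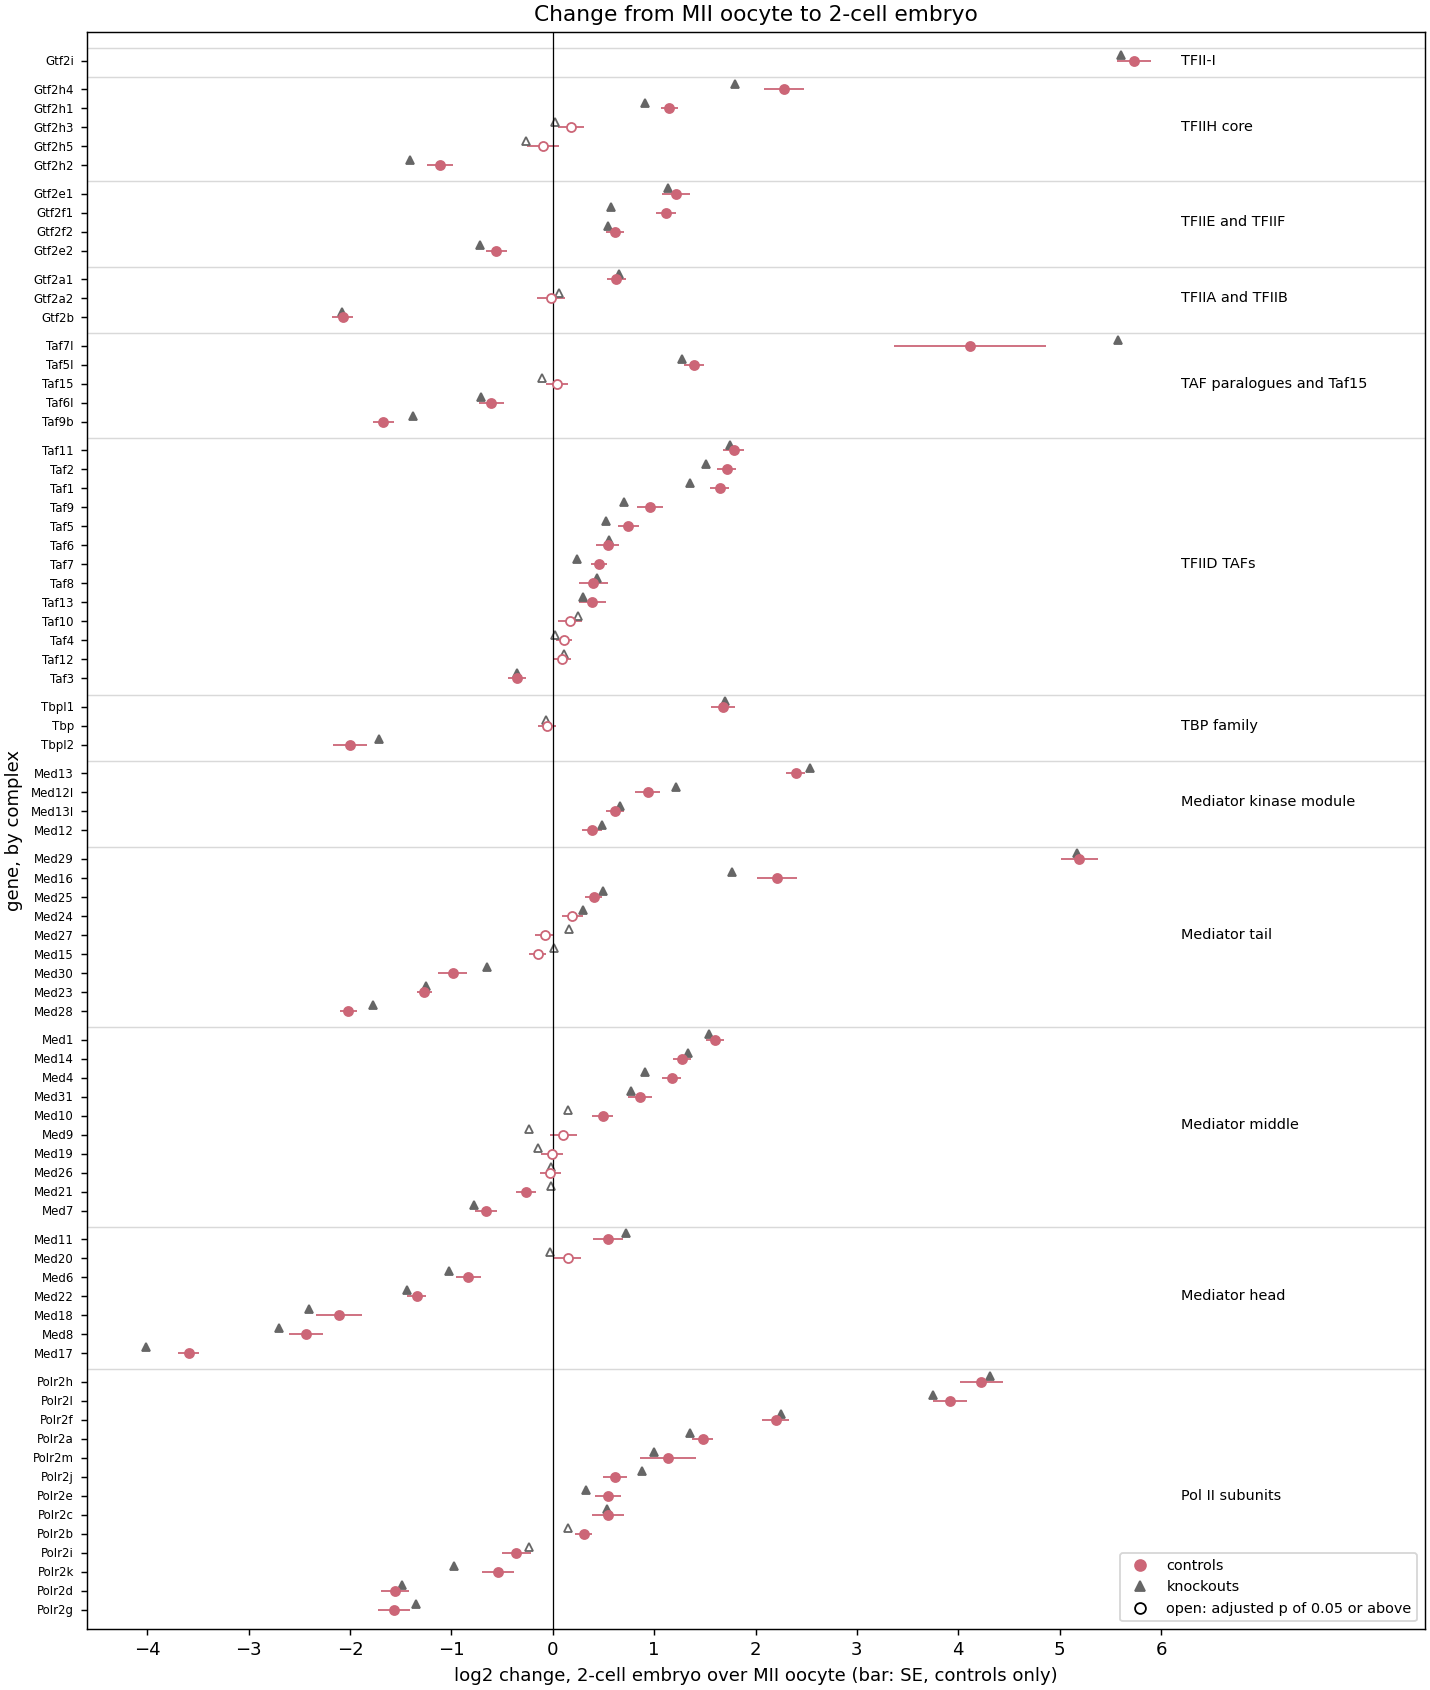
Log2 change from MII oocyte to 2-cell embryo for each of the 77 genes, grouped by complex, in controls (circles, bars are SE) and knockouts (triangles); open symbols did not pass. Circles and triangles lie close together for most genes, from Med17 at -3.59 and -4.01 to Gtf2i at 5.73 and 5.61. They lie furthest apart for Taf7l, which had few reads, at 4.11 and 5.58.

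Upstream sequence was looked up in RefSeq (GRCm38.p6) for windows from 250 bases before to 50 after each start, and 67 of the 77 genes had at least 1 window. The genes without one were Gtf2e2, Med23, Med24, Med30, Med8, Polr2d, Polr2g, Polr2k, Taf2 and Taf7. The 150 bases before the start are printed for the 3 steepest rises and the 3 steepest falls with an entry, to set strongly opposed genes side by side. They lie, in the order printed, at chr5:134314761-134314910 (minus strand), chr7:28392691-28392840 (minus), chr16:20717676-20717825 (plus), chr9:15279907-15280056 (minus), chr4:132463922-132464071 (minus) and chr3:142765097-142765246 (plus). The Gtf2i stretch belongs to a start inside the range given for that gene, which reaches to 134317678. Each of the others lies just outside its gene's range. Capitals mark matches, on either strand, to the letters of an ETS site, here CCGGAAG, or of a YY1 site, here ATGGCGGC. They also mark, on either strand, the core of an NRF1 site, with any base allowed at 1 position. Marked in the same way are a GC box, here GGGCGG, the CCAAT pentamer of a CCAAT box and the TATAAA hexamer of a TATA box. The first 3 sequences belong to genes that rose and the last 3 to genes that fell.
Gtf2i: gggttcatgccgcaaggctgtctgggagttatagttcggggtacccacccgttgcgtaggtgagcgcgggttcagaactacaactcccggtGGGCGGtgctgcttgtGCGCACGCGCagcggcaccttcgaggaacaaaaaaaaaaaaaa
Med29: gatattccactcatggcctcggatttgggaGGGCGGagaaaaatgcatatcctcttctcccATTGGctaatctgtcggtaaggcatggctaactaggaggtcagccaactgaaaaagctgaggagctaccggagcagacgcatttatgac
Polr2h: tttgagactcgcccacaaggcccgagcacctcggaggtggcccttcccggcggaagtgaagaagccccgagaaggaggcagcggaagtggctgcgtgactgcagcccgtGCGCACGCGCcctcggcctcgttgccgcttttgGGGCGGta
Med17: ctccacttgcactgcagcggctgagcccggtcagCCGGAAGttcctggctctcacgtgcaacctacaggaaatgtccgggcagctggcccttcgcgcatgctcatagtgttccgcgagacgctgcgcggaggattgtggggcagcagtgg
Med18: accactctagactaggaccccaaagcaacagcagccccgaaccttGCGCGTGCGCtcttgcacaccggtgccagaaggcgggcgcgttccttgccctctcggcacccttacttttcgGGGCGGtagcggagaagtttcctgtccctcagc
Gtf2b: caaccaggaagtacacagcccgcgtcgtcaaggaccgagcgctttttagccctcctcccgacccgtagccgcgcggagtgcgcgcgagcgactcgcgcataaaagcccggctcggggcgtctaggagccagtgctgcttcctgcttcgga

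Gtf2i and Polr2h, both rising, and Med18, falling, each held an NRF1 match and a GC box match in the printed stretch. Med29 held a GC box and a CCAAT box match, Med17 an ETS match, and Gtf2b none of the 6. Over the whole windows, 28.75% of the 80 windows of the 67 genes matched the ETS letters, where 8.858% of 32851 windows of all genes did. All genes here means the 27025 genes with a window, whether or not they were read in these libraries. The part of that choice in the differences was not tested. The NRF1 letters were in 17.5% against 4.603%, the YY1 letters in 8.75% against 2.243% and the GC box in 65.0% against 35.66%. CCAAT letters were in 24 of the 80 windows, where 37.41% of all windows held them, and TATAAA in 12 of the 80, where 13.62% did. Split by the stage call in controls, ETS matches were in 27.66% of 47 windows of risen genes, 31.25% of 16 windows of fallen genes and 29.41% of 17 windows of genes without a call. The CCAAT letters were in 23.4%, 56.25% and 23.53% of the same windows, the value for fallen genes being 9 of 16. Fallen genes were missing most often: Gtf2e2, Med23, Med30, Med8, Polr2d, Polr2g and Polr2k had no window. Among risen genes Taf2 and Taf7 had none, and Med24 had none among genes without a call. Matches are letters in a window and were not tested, and genes with several windows count more than once.

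Related genes outside the symbol rule were read from the same fit. The counts stand beside 43.1% of all genes higher and 40.0% lower in controls, and 42.5% and 37.7% in knockouts. Of 29 genes of pausing and elongation, 20 rose and 5 fell in controls, and 18 rose and 7 fell in knockouts. Hexim1, which holds the elongation kinase in an inactive particle, had 2 reads in each control oocyte library and 165.6 ± 21.2 CPM in control embryos (SD, n = 3). Cdk9, that kinase, rose from 6.60 ± 0.219 to 185 ± 15.2 CPM (log2 4.78, SE 0.11). The kinases and helicases that complete Mediator and TFIIH split evenly, with 4 of 8 higher and 4 lower in both genotypes. Ccnc, the cyclin of the Mediator kinase, rose by 1.56 on the log2 scale, in the direction of the kinase module genes, and Mnat1, which assembles the kinase of TFIIH, fell by 2.04. Of 9 genes of Pol II assembly and tail phosphatases, 6 rose and 1 fell in controls, led by Rprd1b (log2 7.28) and Gpn3 (log2 5.73). Of 11 partners of Taf5l and Taf6l in SAGA, 6 rose and 3 fell in controls, with Usp22 at 3.42 and Supt3 at -2.88 on the log2 scale. Between genotypes edgeR called 0 of these genes, of the Pol I and Pol III genes and of Gtf2a1l at either stage. Over all genes it called 0.583% in oocytes and 0.0260% in embryos. An unadjusted p under 0.05 was found for 6 of 76 related genes in oocytes, where 10.3% of all genes had one. In embryos it was found for 4 of 77, where 3.19% of all genes had one.

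The second question was whether loss of Daxx changed the machinery in oocytes. Of 76 genes tested (Taf7l had too few reads), edgeR called 0, as did DESeq2 and limma-voom. Over all genes edgeR called 0.583% of 14235, DESeq2 1.62% and limma-voom 0.400%. At an unadjusted p under 0.05 there were 5 genes, or 6.58%, against 10.3% of all genes. The 3 knockout libraries lay wholly above or below the 3 controls for 12 genes, 15.8% against 15.7% of all genes. The median log2 difference was -0.0002. For 72 of the 76 genes the 95% interval lay within 0.5 of 0 on the log2 scale, and for all 76 within 1. The exceptions at 0.5 were Gtf2h4, Gtf2i, Med16 and Polr2h, all with few reads in oocytes.

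The smallest p-values in oocytes belonged to Taf9b, Taf5, Med14 and Polr2a. Taf9b was at 228, 219 and 247 CPM in controls and 258, 256 and 262 CPM in knockouts (log2 0.14, SE 0.05). Taf5 was at 126, 127 and 121 CPM in controls and 137, 134 and 138 CPM in knockouts (log2 0.11, SE 0.04). Knockout libraries lay above all controls for both genes, yet neither passed (adjusted p by edgeR 0.34 and 0.39). Med14 was at 239, 220 and 230 CPM in controls and 219, 214 and 215 CPM in knockouts (log2 -0.11, SE 0.04). Polr2a was at 59.1, 52.6 and 57.4 CPM in controls and 68.4, 62.8 and 60.0 CPM in knockouts (log2 0.16, SE 0.07). Their groups did not overlap either, and by edgeR their adjusted p-values were 0.41 and 0.43.

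In embryos all 77 genes were tested and edgeR, DESeq2 and limma-voom each called 0. Over all genes edgeR called 0.0260% of 15414, DESeq2 0.0419% and limma-voom 0.0130%. An unadjusted p under 0.05 was found for 3 genes, 3.90% against 3.19% of all genes. Libraries of the groups did not overlap for 19 genes, 8 higher and 11 lower in maternal knockouts, which is 24.7% against 17.8% of all genes (11.4% higher and 6.38% lower). The median log2 difference was -0.04 against 0.002 for all genes, with 30 genes above 0 and 47 below. Negative differences were 61.0% of those of the 77 genes and 49.6% of those of all genes. They were found for 6 of 13 Pol II genes, 7 of 7 genes of the Mediator head, 8 of 10 of the middle, 1 of 9 of the tail and 1 of 4 of the kinase module. In the other groups they were found for 1 of 3 genes of the TBP family, 9 of 13 TFIID TAFs, 2 of 5 other TAF genes, 2 of 3 genes of TFIIA and TFIIB, 4 of 4 of TFIIE and TFIIF, 5 of 5 of TFIIH and for Gtf2i. These counts of signs were not tested. With library totals in place of TMM scaling, the median over the 77 genes was 0.001 and that over all genes 0.04. The summed oocyte markers stood at 1749 to 1788 CPM in knockout embryos and 1317 to 1590 CPM in controls, and the part of that difference in these values was not tested.

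The embryo genes with the smallest p were Taf9b, Gtf2f1, Med4 and Med17. Taf9b was at 77.8, 78.6 and 65.3 CPM in controls and 101 and 104 CPM in maternal knockouts (log2 0.44, SE 0.16). As in oocytes, its knockout libraries lay above all controls. Gtf2f1 was at 182, 229 and 213 CPM in controls and 112 and 182 CPM in knockouts (log2 -0.53, SE 0.20). That difference was -0.19 without knockout replicate 2, -0.97 without knockout replicate 3 and -0.10 without both embryo libraries numbered 2. Med4 was at 128, 141 and 138 CPM in controls and 118 and 107 CPM in knockouts (log2 -0.30, SE 0.14). Med17 was at 38.5, 32.6 and 32.7 CPM in controls and 30.4 and 23.9 CPM in knockouts (log2 -0.39, SE 0.19). The edgeR adjusted p of these 4 genes was 1.00, and it ranged over the alternatives from 0.10 for Gtf2f1 to 1.00. Precision was lower than in oocytes: the 95% interval lay within 0.5 of 0 on the log2 scale for 41 genes and within 1 for 75, the others being Polr2m and Taf7l.

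**Figure D5:**
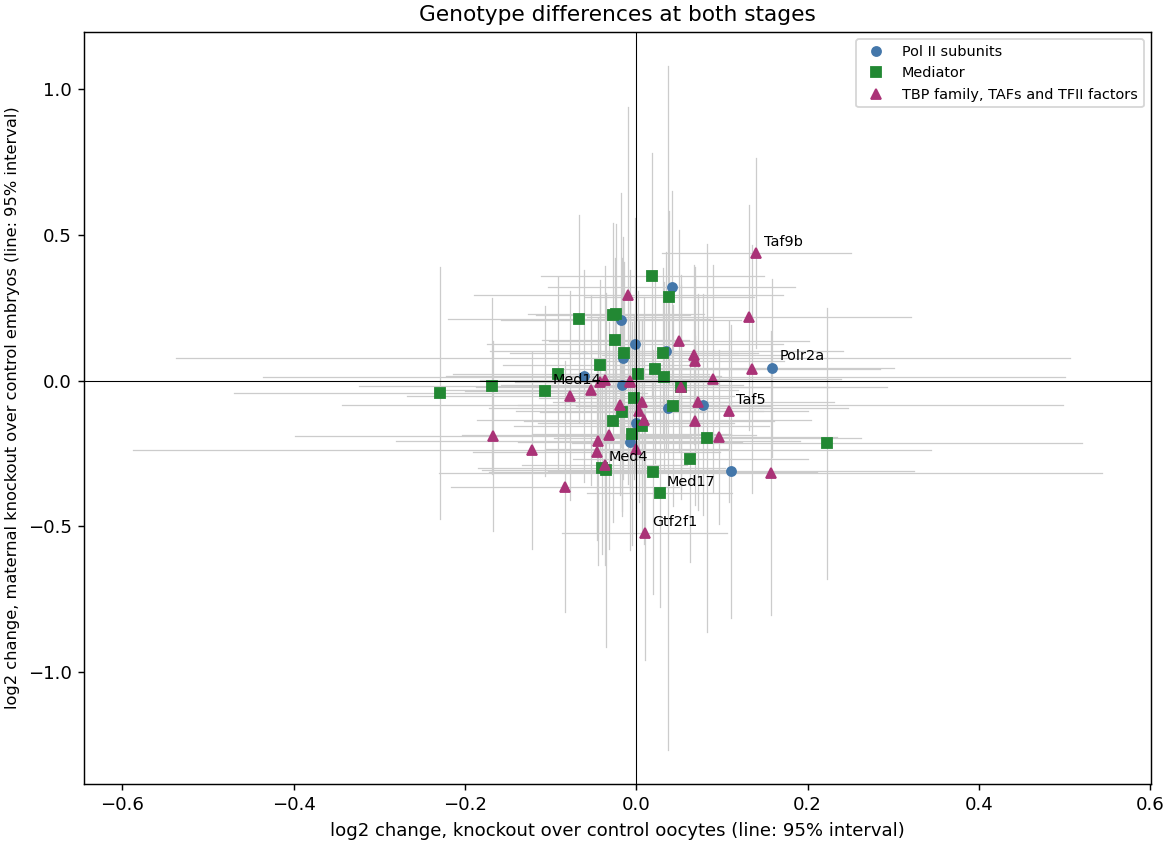
Log2 difference between knockout and control in oocytes (horizontal) and embryos (vertical) for the 76 genes tested at both stages, with 95% intervals as grey lines. Points crowd around 0 on both axes, and the intervals are longer in the vertical direction.

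The difference between the genotype effects at both stages was tested in 1 fit of all 11 libraries. Again edgeR called 0 of 77 genes, as did DESeq2 and limma-voom. Over all genes edgeR called 0.0118% of 17018, DESeq2 0.0182% and limma-voom 0.0118%. At an unadjusted p under 0.05 there were 6, or 7.79% against 5.41% of all genes. Lowest in p were Med17 (log2 difference of effects -0.42, SE 0.14), Gtf2f1 (-0.55, SE 0.21), Med10 (-0.35, SE 0.15) and Taf1 (-0.30, SE 0.14), all at an adjusted p of 0.91 by edgeR. Over the alternatives the value ran from -0.60 to -0.28 for Med17, from -0.97 to -0.13 for Gtf2f1, from -0.41 to -0.20 for Med10 and from -0.47 to -0.18 for Taf1. All of these ends came without knockout embryo replicate 3 or without both embryo libraries numbered 2. The differing stage calls of Polr2b, Polr2i, Med10, Med21 and Med24 between genotypes were thus not backed by a call in this test.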

How the data were processed

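Whole-number read counts per gene were deposited by the authors for 24421 genes in 11 libraries, with a length (width) per gene, an other value that the sources used here do not define. Per the labels' protocols, libraries were made from total RNA with the SoLo RNA-Seq system (NuGEN). Per the submitters' processing notes, reads were aligned with STAR 2.5.0a to GRCm38 (mm10), with SAMtools also named. The sources used here name no counting program and say nothing of strand. Identifiers were named with RefSeq GRCm38.p6, in which 24387 matched and 34 did not (at most 0.0325% of reads).

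The 77 genes and all lists were chosen with earlier results of these data known. Counts were tested as deposited with edgeR 4.0.16 in R 4.3.3: filterByExpr (count minimum 10, total minimum 15), TMM factors, robust quasi-likelihood tests within the groups compared, and Benjamini-Hochberg adjustment over all genes tested. Members were read from that fit. CPM are counts divided by the library's counted reads and scaled to a common total, and values are mean ± SD. With no read at all, a level could still reach 0.0754 to 0.167 CPM, depending on the library (3 counts, counting error only, since libraries were amplified and reads carry no molecular identifiers used here). P-values measure the spread between pools. Replicates of a group differed by 5.10 to 37.2 in chi-square per degree of freedom, so none was a duplicate. Scripts were tested on simulated data. Alternatives were DESeq2 1.42.0, limma-voom (limma 3.58.1), other scalings and filters, 1 fit of all libraries, a replicate block and leaving out each replicate. Leaving out both embryo libraries numbered 2 was added after seeing the data. The symbol rule does not cover every gene of these families. Gtf2a1l and the lists of related genes were read from the same fit. Named were the 4 smallest p-values per genotype comparison, the 10 largest rises and falls between stages, all Pol II genes, the related pairs and the genes without a stage call. Values of further members were given for completeness, chosen after they were seen. Of related lists, the 2 smallest p-values in the control stage comparison were named. Near-identical copies were searched with blastn 2.17.0 (at least 95% over 200 bases), and 9 of the 77 genes had one. Exons of 15 shared at least 10% of their bases with another gene.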

Additional observations from a re-analysis of the deposited data

How the results depend on the processing

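Stage calls of the 20 named rises and falls held in controls under all 14 alternatives and in knockouts under all 13, with no change of direction. In controls the numbers of genes higher and lower were 44 and 19 with RLE size factors, and 39 to 42 and 19 to 22 when 1 library was left out. In knockouts they were 45 and 19 and 37 to 40 and 19 to 22. RLE size factors moved the median of all genes in the control stage comparison from 0.07 to 0.17. The genotype comparisons and their difference gave 0 calls among these genes under every alternative run, also without both embryo libraries numbered 2. Whether replicate numbers pair the libraries could not be settled, since deviations were taken from means of only 2 or 3 libraries. Between oocyte genotypes, correlations of deviations ran from -0.20 to 0.33 for same-numbered and from -0.40 to 0.32 for differently numbered libraries. Between embryo genotypes these ranges were -0.19 to 0.009 and -0.17 to 0.19. Between stages they were -0.008 to -0.0006 and -0.033 to 0.032 in controls. In knockouts they were 0.004 to 0.092 and -0.092 to 0.075. With the replicate block there were 41 higher and 21 lower in controls, 37 and 19 in knockouts, and 0 between genotypes. The median SE was 0.17 in the embryo comparison, with 2 knockout libraries, and 0.065 in oocytes. When all libraries shared 1 fit, 15 of the 77 genes had an unadjusted p under 0.05 in embryos, where 1511 of all 17018 genes did. In the fit of 5 libraries these counts were 3 of 77 and 491 of 15414. Over all genes, edgeR's calls between oocyte genotypes varied when 1 library was left out. They ran from 19 higher and 4 lower without control replicate 1 to 117 and 40 without control replicate 3. With all libraries in 1 fit they were 18 and 4, and without the low-count filter 130 and 53. DESeq2 gave 148 and 71. Few reads in oocytes limited Gtf2h4, Gtf2i, Med16, Polr2h and Taf7l. Polr2l, with 53 to 88 reads per oocyte library, and Med29, with 61 to 117, also had fewer than Med16, with 127 to 191.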

Other observations

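RNA polymerases I and III, which make ribosomal and transfer RNA and share the small subunits Polr2e, Polr2f, Polr2h, Polr2k and Polr2l with Pol II, also differed between stages. All 8 Pol I genes tested rose in controls, with a median log2 change of 2.08, and 6 of 8 rose in knockouts. Among all genes, 43.1% were higher and 40.0% lower in controls, and 42.5% and 37.7% in knockouts. Cd3eap rose from 9.23 ± 1.71 to 113 ± 2.63 CPM in controls (SD, n = 3 each, log2 3.59, SE 0.14), and Polr1e from 42.4 ± 1.12 to 257 ± 34.1 CPM (log2 2.57, SE 0.10), both past the edgeR threshold. Of 11 Pol III genes, 7 rose and 2 fell in controls, and 6 rose and 2 fell in knockouts. Polr3g rose from 2.90 ± 0.315 to 63.1 ± 8.19 CPM (log2 4.42, SE 0.15), and Polr3e by 2.31 on the log2 scale.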
